A study of Homo sapiens with 21 samples.

Results

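The 10 genes described here encode proteins of the Z-disc and its associated scaffold: ACTN2, MYOZ2, NEBL, NEXN, SYNPO2L, CSRP3, TCAP, MYPN, PALLD and FLNC. They were taken by gene symbol from 6 deposited tables of differential expression, and they are 10 of the 11851 genes that had a transcript in at least 1 table. RNA-seq was performed on the human iPSC line PGP1, unedited (wild type), at 5 points on the way to cardiomyocytes, with 3 libraries each. These were undifferentiated cells (iPSC), followed by M for mesoderm, CMes for cardiac mesoderm, CP for cardiac progenitor and CM for cardiomyocyte. Also sequenced were CMs from 2 independently edited lines, UBE2B-/- line 1 and UBE2B-/- line 2, with 3 libraries each, which makes 21 libraries in all. UBE2B encodes an E2 enzyme that passes ubiquitin to histone H2B together with the RNF20 and RNF40 ligases.

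All groups shared the PGP1 background and a differentiation by activation and then inhibition of Wnt signalling, without a vehicle or drug arm, and CMs were selected in lactate once they beat. Mutant cells were plated at a higher number than wild-type cells. Both mutant lines were grown from picked colonies after Cas9 editing near the start of UBE2B, by different transfection protocols, so each line stands for a single clonal origin. Only beating mutant wells entered the CM libraries, and many mutant wells did not beat. Each library came from a plate begun at a different time. In these bulk samples, fewer muscle cells and less RNA per muscle cell cannot be told apart.

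The Z-disc is the border of the sarcomere, where actin filaments of opposite polarity are crosslinked and titin is anchored. Alpha-actinin 2 (ACTN2) is the crosslinker. Myozenin 2 (MYOZ2, calsarcin-1), telethonin (TCAP), myopalladin (MYPN), palladin (PALLD) and muscle LIM protein (CSRP3) bind alpha-actinin or titin there. Nebulette (NEBL) lies along the ends of thin filaments at the Z-disc, nexilin (NEXN) and filamin C (FLNC) bind actin, and SYNPO2L belongs to the synaptopodin family of alpha-actinin partners. Variants in many of these genes are known causes of cardiomyopathy.

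The tables list only transcripts with q of at most 0.05, and they give group contrasts, not values per library. Levels are therefore group means in estimated counts, which are not corrected for transcript length, and the spread is the residual SD between libraries in natural-log units. A transcript was called when q was at most 0.05 and its change reached 1.5-fold. Of the 114 transcripts that GENCODE release 44 annotates for these genes, 37 were listed at least once, 30 of them protein coding, 4 marked for nonsense-mediated decay and 3 with a retained intron. The other 77 were either not tested or did not pass, and no level can be given for them. Each stage that stood in 2 tables differed between them by a constant factor, from 0.886 to 1.15. Wild-type levels below are set on the scale of the CP to CM table, while every test was made within its own table.

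Sequences are shown where the results turn on a transcript's structure or start. FLNC (chr7:128830406-128859274, GRCh38, plus strand) had 2 listed transcripts. FLNC-201 has 48 exons and FLNC-202 has 47, and the difference in coding length is the 99 bases of exon 31 (chr7:128849976-128850074), the exon that encodes the first hinge of filamin C. In the line below, taken from the reference transcript, capitals mark the exon that FLNC-202 skips and lower case marks 12 bases of the neighbouring exon on either side.
FLNC exon 31: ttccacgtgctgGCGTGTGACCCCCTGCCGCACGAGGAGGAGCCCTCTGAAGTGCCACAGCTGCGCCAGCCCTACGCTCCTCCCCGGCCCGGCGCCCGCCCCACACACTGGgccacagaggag

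NEBL (chr10:20779973-21293011, minus strand) has 2 starts that the results separate by 276876 bases. NEBL-202 encodes nebulette with 1014 codons in 28 exons. NEBL-203 encodes the short LIM-nebulette form, also called LASP2, with 270 codons in 7 exons, and only 2 of its exons are identical to exons of NEBL-202. The windows are the 250 bases before each start in RefSeq (GRCh38.p14), at chr10:20897312-20897561 and chr10:21174188-21174437, and capitals mark GATAA, the core of the motif read by GATA factors.
NEBL-202 start: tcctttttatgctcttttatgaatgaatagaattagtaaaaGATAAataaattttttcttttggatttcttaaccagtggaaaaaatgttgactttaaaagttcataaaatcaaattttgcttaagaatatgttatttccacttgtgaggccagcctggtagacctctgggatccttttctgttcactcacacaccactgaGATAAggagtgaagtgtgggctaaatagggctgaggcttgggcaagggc
NEBL-203 start: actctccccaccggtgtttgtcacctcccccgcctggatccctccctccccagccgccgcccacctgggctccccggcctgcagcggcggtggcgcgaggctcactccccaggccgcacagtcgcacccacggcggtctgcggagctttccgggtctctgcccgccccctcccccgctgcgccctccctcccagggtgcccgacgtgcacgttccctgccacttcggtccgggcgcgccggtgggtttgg

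The window of NEBL-202 held GATAA starting 209 and 49 bases before the start, and that of NEBL-203 held none. With the first 50 transcribed bases included, GC content was 38.7% at the start of NEBL-202 and 77.0% at that of NEBL-203. MYOZ2 is shown because its window held a match to the motif of MEF2, a muscle transcription factor, 52 bases before the start (chr4:119135582-119135831, plus strand, capitals).
MYOZ2 start: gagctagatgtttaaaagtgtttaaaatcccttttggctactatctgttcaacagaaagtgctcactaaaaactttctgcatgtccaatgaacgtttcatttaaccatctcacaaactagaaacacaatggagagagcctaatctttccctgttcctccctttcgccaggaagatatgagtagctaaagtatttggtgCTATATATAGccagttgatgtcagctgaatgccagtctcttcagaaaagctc

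RefSeq windows of 300 bases, from 250 before to 50 after a start, were found for 8 of the 10 genes, at 14 starts. CSRP3 and TCAP had none. Both strands were searched, and motifs could overlap. The MEF2 motif matched at MYOZ2 and SYNPO2L, or 2 of 14 windows, against 2.99% of 35116 windows of all genes. The SYNPO2L window is that of SYNPO2L-202, the minor transcript of the gene in CM. M-CAT (CATTCC) matched at FLNC, MYPN, NEXN and PALLD, or 4 of 14 windows against 14.0% of all. The PALLD matches lie in the window of PALLD-205 and PALLD-215, and that of PALLD-206 held none. NEBL and PALLD have several windows each, and some of NEBL overlap, so the 14 are not separate promoters. GATAA matched in 4 of 14 against 22.7%, the E-box (CANNTG) in 11 of 14 against 68.7%, the NKX2-5 core (AAGTG) in 8 of 14 against 43.1%, and the CArG box in 0 of 14 against 1.29%. These matches describe letters in the windows and are not binding sites.

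In the early stages only NEBL, FLNC and, from CMes on, PALLD were listed. From iPSC to M, NEBL was called higher and FLNC lower, while the other 8 genes were not listed. The 2 higher and 1 lower transcripts are 1.75% and 0.88% of the 114 annotated, of which an unknown number were tested. Of all tested transcripts, 1.79% were called higher and 2.18% lower. The calls at this transition were thus not shown to exceed the general rate. NEBL-203 went from 250 to 501 estimated counts, which is a log2 change of 1.00 ± 0.16 (SE, n = 3 per stage, q = 2.12e-08), and NEBL-202 from 497 to 906. FLNC-201, the long filamin C transcript, went from 1458 to 811, a log2 change of -0.85 ± 0.12 (q = 5.69e-10). Each of these changes exceeded the residual SD, which was 0.12 or less on the natural-log scale.

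From M to CMes, 7 transcripts of FLNC, NEBL and PALLD were called higher, or 6.14% of the 114 annotated, and 0 lower. The background was 4.59% higher and 3.51% lower. FLNC-201 rose from 811 to 7712 (log2 3.25 ± 0.13, n = 3 per stage) and stood at rank 5 by p among 70285 transcripts. FLNC-202, without exon 31, averaged 1.34 counts at M and 557 at CMes with a residual SD of 1.74, so its libraries differed widely. PALLD-209, a palladin transcript of 12 exons, rose from 366 to 1260 (log2 1.78 ± 0.18), and PALLD-215 by 1.87 ± 0.57 on the log2 scale. NEBL-202 rose by 1.15 ± 0.16 and NEBL-203 by 0.84 ± 0.14 on the log2 scale.

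ACTN2, MYOZ2, SYNPO2L and NEXN entered the listing at CP. From CMes to CP, 15 transcripts of 7 genes, or 13.2% of the 114 annotated, were called higher, against 4.66% of all tested transcripts. NEBL-203 was the 1 called lower, or 0.88%, against 3.80%. ACTN2-201, the listed ACTN2 transcript with the highest estimated count in CP and CM, was under 1 count in CMes and at 280 in CP. MYOZ2-201 averaged 0.134 and 84.1, and SYNPO2L-201 averaged 0.218 and 87.6. NEXN-202 was already present in CMes, at 120, and reached 510 in CP (log2 2.09 ± 0.42, n = 3 per stage). The CMes means of ACTN2-201, MYOZ2-201 and SYNPO2L-201 were thus under 1 count, while NEXN-202 was already measurable. The other ACTN2 transcripts called at this step were also low in CMes, up to 1.56 counts for ACTN2-212. FLNC-201 rose further, from 7712 to 14868 (log2 0.95 ± 0.17), and PALLD-209 from 1260 to 3868 (log2 1.62 ± 0.11). TCAP, MYPN and CSRP3 were not listed at this transition.

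**Figure D1:**
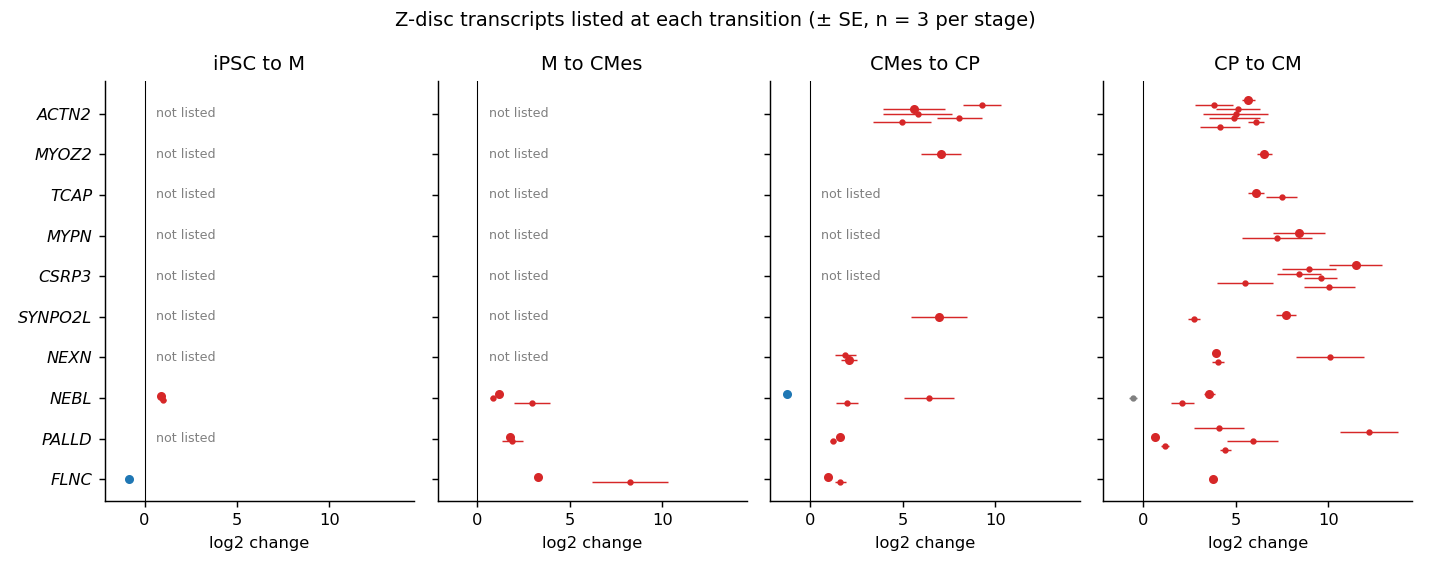
Log2 change (horizontal axis, bars ± SE, n = 3 libraries per stage) of every listed transcript of the 10 genes (rows) at the 4 wild-type transitions. Red points were called higher, blue lower and grey listed but under 1.5-fold, and the large point of a row is the listed transcript with the highest mean. Genes enter the listing stage by stage, and at CP to CM all 10 rows lie to the right of 0 except for NEBL-203.

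From CP to CM every gene of the set had a transcript called higher. For FLNC that was FLNC-202 alone. The count was 32 transcripts higher, or 28.1% of the 114 annotated, and 0 lower. Of all tested transcripts, 9.49% were higher and 7.92% lower. Taking the listed transcript of each gene with the highest mean over both stages, the median log2 change was 5.89. For PALLD that was PALLD-209 (0.62), although PALLD-206 had the higher level in CM. The median over all listed transcripts was 0.63, but it pools 7094 higher and 5888 lower transcripts and is not a like comparison. The only listed transcript that was not called was NEBL-203, at -0.58 ± 0.22 (n = 3 per stage, q = 0.0399). When z was read from a t distribution (4 residual degrees of freedom) and not, as in Sleuth, a normal one, 11 of the 32 stayed called, and 0 of those at the earlier transitions. Cell type markers moved at the same step. A summed level adds only the most abundant listed transcript of each listed marker gene, so it is not a total for the markers. For the pluripotency markers in CP it was 1848 at CMes to CP, far from the value at this step. All 7 cardiomyocyte markers were called higher, with a summed level of 25230 in CP and 449448 in CM, and all 4 smooth muscle markers were higher, from 7968 to 24342. Of 5 pluripotency markers, 4 were lower (33490 to 58.8 summed), as were 2 of 4 endothelial markers (4949 to 637), 3 of 5 endoderm and epithelial markers (6179 to 973), 1 of 4 mesoderm and 1 of 5 skeletal muscle markers. Of 6 mesenchymal markers, 2 were higher and 3 lower (35509 to 9540). Their part in the rise of the Z-disc transcripts was not tested.

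Among the crosslinker and its direct partners, ACTN2-201 went from 280 in CP to 14286 in CM, a log2 change of 5.67 ± 0.35 (n = 3 per stage, q = 3.51e-57). All 7 listed ACTN2 transcripts were called higher, including ACTN2-211, which is annotated for nonsense-mediated decay and went from 117 to 8096. Per kb of transcript, ACTN2-211 stood at 2981 and ACTN2-201 at 2932 in CM. The division of reads between them was an estimate, and its uncertainty differed between fits. The technical variance, as given by kallisto, was 109% of the residual variance for ACTN2-211 here and 8.55% for ACTN2-201. For ACTN2-201 at CMes to CP it was 285%. In the fit of wild-type and mutant CMs it was 1.23% for ACTN2-211 and 0.366% for ACTN2-201. MYOZ2-201 went from 84.1 to 7886 (log2 6.54 ± 0.41). SYNPO2L-201 went from 87.6 to 18513 (log2 7.72 ± 0.52), while SYNPO2L-202, which starts 5000 bases upstream, went from 77.5 to 522 (log2 2.75 ± 0.31). In CM, SYNPO2L-201 made up 97.7% of the pair per kb of transcript, against 57.2% in CP.

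The listed transcripts of TCAP, CSRP3 and MYPN were at or near 0 in CP, up to 10.7 counts for TCAP-201. TCAP-201, which encodes telethonin, averaged 10.7 counts in CP and 769 in CM, a log2 change of 6.10 ± 0.44 (n = 3 per stage). CSRP3-201 averaged 2.64 in CP and 8948 in CM (q = 1.68e-13), with a residual SD of 1.24. CSRP3-204 was at 0 in every CP library and at 384 in CM, at least 128-fold higher than a floor of 3 counts per library. MYPN-202 was also at 0 in CP and at 171 in CM, at least 56.9-fold above that floor, and MYPN-204 reached 74.8 from 0. Where a CP level is under the floor, the fitted log2 value depends on the pseudocount of 0.5, so levels are given instead.

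NEXN, NEBL and FLNC each had a listed transcript that was already measurable in CP. NEXN-202 went from 510 to 7693, a log2 change of 3.91 ± 0.16 (n = 3 per stage, q = 3.78e-124), rank 31 by p among 69937 transcripts. NEXN-203, whose annotated start lies 29504 bases downstream, averaged 1.82 in CP and 2559 in CM with a residual SD of 1.57. NEBL-202 went from 2767 to 33044 (log2 3.58 ± 0.28). FLNC-202 went from 1713 to 23701 (log2 3.79 ± 0.21, q = 2.90e-73). FLNC-201, at 14868 the more abundant form in CP, was not listed, so its change at this step is unknown.

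The transcripts of NEBL, FLNC and PALLD changed in their proportions. Per kb of transcript, NEBL-203 made up 59.9% of the NEBL-202 and NEBL-203 pair in iPSCs, 62.1% in M, 56.9% in CMes, 28.5% in CP and 2.17% in CM. Its own level went from 894 in CMes to 371 in CP (log2 -1.27 ± 0.13, n = 3 per stage) and 247 in CM, close to the 250 of iPSCs. NEBL-202 was at 2013 in CMes and 2767 in CP, a step of 0.46 on the log2 scale that was not listed. The fall of LIM-nebulette at CP thus stood beside a nebulette step that did not pass the test, and the larger rise of nebulette came at CM.

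FLNC-202 made up 0.167% of the FLNC pair per kb in M, 6.82% in CMes and 10.4% in CP. In CM it reached 2621 estimated counts per kb, above the 1623 of FLNC-201 in CP, but the CM share is unknown because FLNC-201 was not listed there. For PALLD, PALLD-209 went from 3868 in CP to 5939 in CM, a log2 change of 0.62 ± 0.15 (n = 3 per stage). PALLD-206, with 22 exons and a start 334976 bases upstream of PALLD-209, averaged 2.29 in CP and 13357 in CM with a residual SD of 1.34. Its share of the pair per kb was 0.0444% in CP and 62.8% in CM. Reads that fall in shared exons were divided between such transcripts by estimation. The technical variance that kallisto gives for that estimation was 58.0% of the residual variance for PALLD-206 at CP to CM, and for FLNC-202 it was 87.5%. For FLNC-202 at CMes to CP it was 1299% of the residual variance, so the shares of FLNC-202 in CMes and CP rest on an uncertain division of reads.

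**Figure D2:**
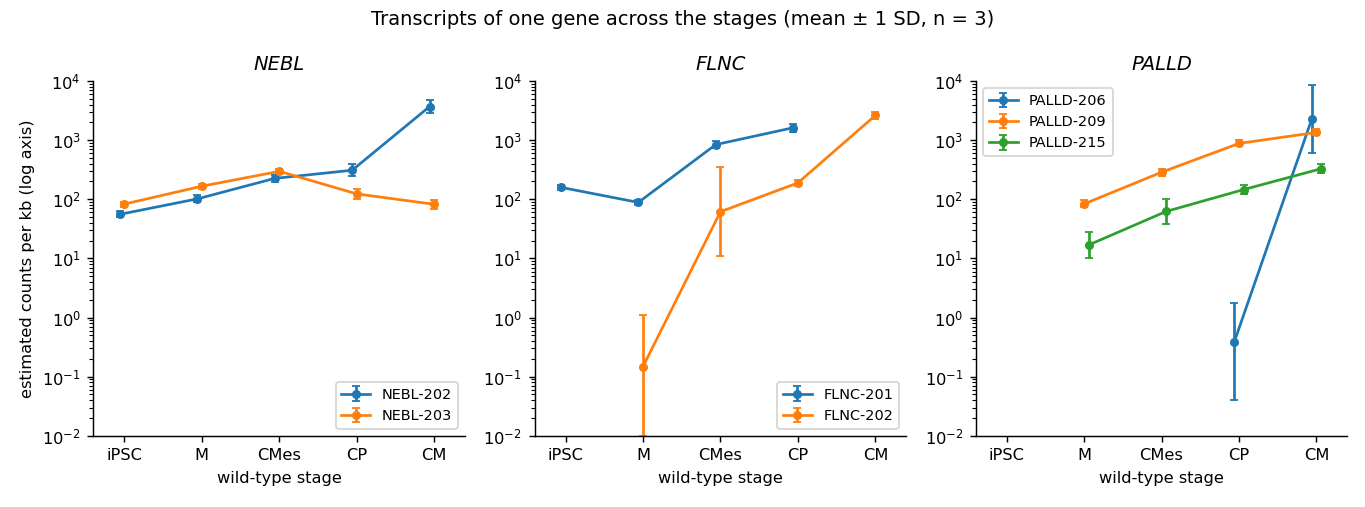
Estimated counts per kb of transcript (vertical log axis, mean ± 1 residual SD, n = 3 libraries per stage) of NEBL, FLNC and PALLD transcripts over the wild-type stages, on a single scale, with bars cut at the lower end of the axis and no point where a transcript was not listed. NEBL-202 and NEBL-203 exchange rank between CMes and CP, and PALLD-206 passes PALLD-209 only in CM.

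The 2 UBE2B-/- lines were each compared with the same 3 wild-type CM libraries, so the comparisons share their controls. Levels in this section are on the scale of that fit, 1.15 times the scale above. UBE2B itself was listed lower in line 1 (log2 -1.91 ± 0.53, n = 3 per group, q = 0.0113), as was its paralog UBE2A (-0.68 ± 0.20). Neither was listed for line 2, and RNF20 and RNF40 were not listed for either line. The genotypes follow the labels.

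No Z-disc transcript was called higher in either line. In line 1, 12 transcripts of 7 genes were called lower, against a background of 2.18% lower and 2.53% higher, and in line 2, 14 transcripts of 8 genes, against 1.88% lower and 2.90% higher. The 12 transcripts of line 1 were all among the 14 of line 2. Over all tested transcripts, 1.21% were called lower in both lines. With a t distribution on 6 residual degrees of freedom, 0 of the 12 and 0 of the 14 stayed called, as did 0 of all transcripts in those tables. The genes called lower in both were ACTN2, MYOZ2, NEBL, NEXN, SYNPO2L, PALLD and FLNC, line 2 added CSRP3, and TCAP and MYPN were listed for neither. For the most abundant listed transcript of each gene, the median of the mean log2 change of both lines was -1.77. The median over all transcripts listed for both was 0.90, which pools 1196 called higher and 793 called lower. Among transcripts called lower in both lines, the median was -1.79 for the 12 Z-disc transcripts and -1.26 over all.

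ACTN2-201 averaged 16486 estimated counts in wild-type CMs, against 5571 for line 1 and 4719 for line 2. That is 33.8% and 28.6% of wild type, with log2 changes of -1.57 ± 0.42 (n = 3 per group, q = 0.00819) and -1.80 ± 0.42 (q = 0.00131). MYOZ2-201 averaged 9100, 2770 and 2359, or 30.4% and 25.9% of wild type. SYNPO2L-201 averaged 21364, 7857 and 5755, and its line 1 value lay nearest to the limit (q = 0.0482). Each line's mean was thus below wild type by more than the residual SD, which was 0.35 to 0.40 on the natural-log scale.

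NEXN had the lowest p of the set in both lines. NEXN-202 averaged 8877 in wild type, against 2772 for line 1 and 2429 for line 2, with log2 changes of -1.68 ± 0.21 (n = 3 per group, q = 2.60e-12) and -1.87 ± 0.21 (q = 1.82e-15). NEXN-203 went from 2952 to 866 and 685, and NEXN-205 from 1278 to 365 and 270. By p, the NEXN transcripts held ranks 12, 19 and 39 among 65457 transcripts for line 1 and 7, 10 and 12 for line 2. The changes of NEXN-202 lay within the range of the other members, and the residual SD of the NEXN transcripts was the smallest among the 12, from 0.175 to 0.180.

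NEBL-202, the nebulette transcript, averaged 38132 in wild type, against 10650 for line 1 and 9263 for line 2, or 27.9% and 24.3% of wild type. The log2 changes were -1.84 ± 0.41 (n = 3 per group, q = 6.59e-04) and -2.04 ± 0.41 (q = 8.74e-05). NEBL-203 was not listed for either line. PALLD-206 averaged 15414, 4873 and 4108, and PALLD-209 was not listed. FLNC-202 averaged 27350, 11287 and 10721, or 41.3% and 39.2% of wild type, and had the smallest mean change of both lines among the 12 transcripts. FLNC-201 was not listed for either line. Of the listed losses in NEBL, FLNC and PALLD, all but PALLD-208 were in transcripts called higher at CM. Because 32 of the 33 Z-disc transcripts listed from CP to CM were called higher, this overlap was nearly fixed in advance. PALLD-209 was also called higher at CM, and not being listed does not show that PALLD-209, NEBL-203 or FLNC-201 was unchanged. PALLD-208, with a retained intron, averaged 462 in wild type, against 4.06 for line 1 and 0.888 for line 2, with a residual SD of 1.56.

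For 11 of the 12 transcripts, all but PALLD-208, the mutant CMs held 27.9% to 42.2% of the wild-type level in line 1 and 21.1% to 39.2% in line 2. The mutant levels can be set beside those of wild-type CP. With the mutant levels set on the scale of the CP to CM table, ACTN2-201 was 17.2-fold above CP in line 1 and 14.6-fold in line 2, and MYOZ2-201 28.4-fold and 24.2-fold. NEBL-202 was 3.34-fold and 2.90-fold above CP, and FLNC-202 5.71-fold and 5.42-fold. NEBL-212 was lowest on this measure, at 1.60-fold and 0.95-fold. These ratios cross 2 fits and carry no test.

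**Figure D3:**
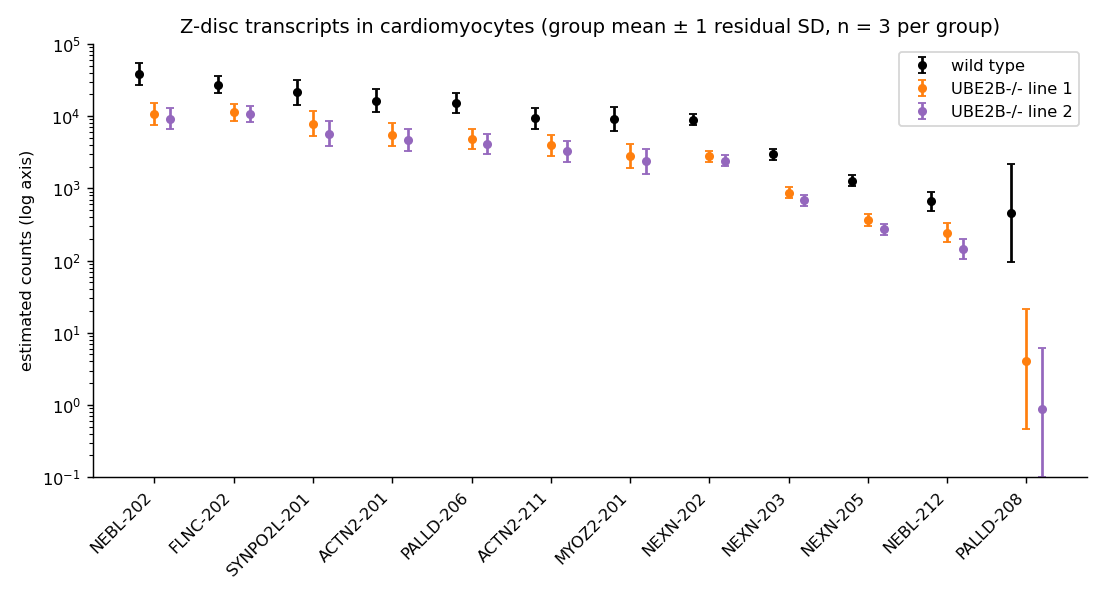
Estimated counts (vertical log axis, group mean ± 1 residual SD, n = 3 libraries per group) of the 12 Z-disc transcripts called lower in both UBE2B-/- lines, in wild-type (black), line 1 (orange) and line 2 (purple) cardiomyocytes. For each transcript both lines lie below wild type and line 2 lies at or below line 1, with PALLD-208 near 0 counts in both.

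CSRP3 was listed for line 2 only. CSRP3-206 averaged 1542 counts in wild type and 286 in line 2, a log2 change of -2.43 ± 0.57 (n = 3 per group, q = 0.00154), and CSRP3-202 averaged 1804 and 511 (-1.82 ± 0.59, q = 0.0462). The variance columns fix the unlisted line 1 means, once the wild-type level is matched to the CP to CM table. They gave 480 for CSRP3-206 and 557 for CSRP3-202, log2 changes of -1.68 and -1.70, just short of the listing limit. The difference of line 2 from line 1 was -0.74 for CSRP3-206 (95% interval -1.86 to 0.37) and -0.12 for CSRP3-202 (-1.29 to 1.04). CSRP3 was therefore not shown to differ between the lines. CSRP3-201, the most abundant form in wild-type CM, was not listed for either.

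All 12 transcripts called in both lines had a lower mean in line 2 than in line 1, and the same was true of 369 of the 793 transcripts called lower in both lines over the whole table. None of the 12 differences passed the test after adjustment, with the lowest q at 0.9999. The nearest was NEBL-212, with a retained intron, which averaged 659 in wild type, against 244 for line 1 and 146 for line 2, a difference of -0.74 (unadjusted 95% interval -1.47 to -0.01). For ACTN2-201 the difference was -0.24 (-1.06 to 0.58), and for FLNC-202 -0.07 (-0.69 to 0.55), on the log2 scale. Because all members come from the same libraries, their shared order is not 12 separate observations.

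Markers of other cells moved with these results. Of 7 cardiomyocyte markers, 2 were called lower in both lines, TNNT2 (log2 -1.63 ± 0.36) and PLN (57665 to 14447 and 14464), and their summed level was 83285 in wild type, against 23661 for line 1 and 21954 for line 2. Line 2 alone added MYH6 and ACTC1. Of 6 mesenchymal markers, 2 were called higher in both lines, COL3A1 and DCN, with a summed level of 7399, 84867 and 208832, and line 2 added COL1A1, COL1A2 and LUM. Line 2 alone had 1 endothelial marker higher and 1 endoderm marker lower. None of the 5 pluripotency, 4 mesoderm and 5 skeletal muscle markers was listed for either line, and 1 smooth muscle marker was lower in both. TNNT2 averaged 25620 in wild type, against 9214 for line 1 and 7490 for line 2. The part of cell composition in the fall of the Z-disc transcripts was not tested.

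Other sarcomere genes were counted from lists, by the most abundant listed transcript of each gene. Over all tested transcripts, 9.49% were called higher and 7.92% lower from CP to CM. In both mutant lines, 1196 of 65457 tested transcripts were called higher and 793 lower. Of 30 other Z-disc genes, 25 were called higher and 2 lower from CP to CM, with a median log2 change of 3.37, and LDB3, FHOD3, SORBS2 and HSPB7 had the largest z. In both mutant lines 10 of the 30 were called lower, among them LDB3 (-1.57 ± 0.25) and SORBS2 (-1.27 ± 0.18), and CAPZB, an actin capping subunit also used outside muscle, was called higher (1.16 ± 0.24). All 10 thin filament genes rose from CP to CM, and 5 fell in both lines with a median of -1.63. Of 12 thick filament and M-band genes, 11 rose at CM, and 5 were called lower and 1 higher in both lines.

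The paralogs of the members were divided. MYOT, MYOZ1, MYOZ3 and SYNPO2 stand in this list and in that of the other Z-disc genes. From CP to CM, 6 of 14 were called higher and 5 lower, with FLNA, the widely expressed filamin, at -3.89 ± 0.39 and ACTN1 at 1.17 ± 0.15 on the log2 scale. In both mutant lines, 2 of 14 were called higher and 0 lower, where higher calls outnumbered lower ones over all transcripts (1196 against 793). LASP1, the paralog of LIM-nebulette, averaged 4900 in wild type, against 12089 for line 1 and 12021 for line 2, and ACTN4, a non-muscle alpha-actinin, averaged 2178, 4946 and 4449. ACTN4 and LASP1 thus moved opposite to ACTN2 and NEBL-202 in the same libraries. NEBL-203, the LIM-nebulette transcript, was not listed for either line, so LASP1 could not be set beside it.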

How the data were processed

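Poly-A RNA of 21 libraries was sequenced by the authors, trimmed, and quantified with kallisto against hg38, per the study's methods. The variance columns, taken here as score values, are as deposited by the authors. The deposited tables hold Wald results from Sleuth for each transcript. The effect b and mean are deposited in natural log units of estimated counts plus 0.5, normalised by the authors, and the p-value and q-value come from the normal distribution. The columns hold the authors' comparisons only, used here as the data, and depth per library is unknown, so no counting interval is given. From b, log2 changes were computed as b over ln 2, and levels as the exponential of the group's mean, less 0.5. Calls took q of at most 0.05 and 1.5-fold. The number tested was solved from p, rank and q (65457 to 71328). The mean of both lines and their difference were computed from both b, with normal tests and Benjamini-Hochberg adjustment. Scripts ran in python 3.11.15 with scipy 1.17.1 and were tested on simulated data. Named genes were the 10 members, plus the 4 largest z of a list and named markers. Other list genes named were chosen after their values were seen. Members and lists were chosen with earlier results of these data known. Replicates are separate differentiations of a single line.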

Additional observations from a re-analysis of the deposited data

How the results depend on the processing

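With a t distribution in place of the normal distribution, 11 Z-disc transcripts stayed called higher from CP to CM, among them NEXN-202, FLNC-202, ACTN2-201, MYOZ2-201, SYNPO2L-201, TCAP-201 and NEBL-202, and the number was 0 in every other comparison: iPSC to M, M to CMes, CMes to CP, line 1, line 2 and the mean of both lines. Over all transcripts the t distribution left 561 calls from CP to CM, 1 from CMes to CP and 0 elsewhere, and the number of Z-disc transcripts at an unadjusted t-based p under 0.05 was 3 of 3, 7 of 7, 16 of 16, 32 of 33, 12 of 12 and 14 of 14. Without a fold limit, 1 transcript was lower from CP to CM, NEBL-203. The other alternatives, a limit of 0.585 on b, q of at most 0.01, each transcript's own variance, and a group mean of at least 10, kept the counts within 1.5 times. The 37 gene results were each read from the listed transcript with the highest mean. Of these, q of at most 0.01 ended 3 calls, ACTN2-206 from CMes to CP, SYNPO2L-201 in line 1 and CSRP3-202 in line 2. The limit of 0.585 ended PALLD-209 from CP to CM. Other transcripts of ACTN2, CSRP3 and PALLD stayed called there. They include ACTN2-201 (q = 7.51e-18), CSRP3-206 (q = 0.00154) and PALLD-206 (2.29 to 13357 counts). No direction was reversed. No paired analysis was possible because the tables hold no values per library, and for that reason leaving out replicates, a replicate block and another pseudocount were not run. With the listed transcripts of a gene summed, 7 of 22 gene values moved by more than the spread. Among them were NEBL from CMes to CP (log2 -0.78) and PALLD from CP to CM (2.28). The NEBL sum leaves out NEBL-202, which was not listed at that step and averaged 2013 in CMes and 2767 in CP. It is therefore not the change of the whole gene.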

Other observations

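Several transcripts that are not annotated as protein coding were also called. ACTN2-211, marked for nonsense-mediated decay, averaged 9343 estimated counts in wild-type CMs, against 3946 for line 1 and 3247 for line 2, with log2 changes of -1.24 ± 0.39 and -1.52 ± 0.39 (n = 3 per group). NEBL-212, with a retained intron, was listed at M to CMes, CMes to CP and CP to CM, going from 3.79 to 33.1, 132 and 571 on the scale of the CP to CM table. At CMes to CP it was called higher while NEBL-203, the only listed coding transcript of the gene there, was called lower.

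By annotated gene span, the 7 genes called lower in both lines were NEBL at 513039 bases, PALLD at 431406, ACTN2 at 100491, NEXN at 55383, MYOZ2 at 51958, FLNC at 28869 and SYNPO2L at 18923. Of the other members, MYPN covers 124121 bases, CSRP3 28542 and TCAP 1206. The spans of both sets overlap, and no test was made.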
